A study of Drosophila melanogaster with 6 samples.

Results

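Testes in which Pcf11 was knocked down with the bamGal4 driver were compared with testes that carried the driver alone. The comparison used the Pcf11 knockdown library for which counts per gene were analysed (library 2) and both control libraries, that is 3 of the 6 libraries of the series. The Pcf11 genotype was bamGal4>PCf11KD with the hairpin stock VDRC 103710, and the control genotype was bamGal4, with no hairpin. Each library held polyadenylated RNA from 150 pairs of testes of Drosophila melanogaster. Crosses stood for 3 days at 25 °C, and the progeny then developed at 29 °C until dissection. Of the other Pcf11 library (library 1), only reads across splice junctions were analysed, and they entered no comparison with control.

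Pcf11 and cbc, the fly Clp1, form cleavage factor II. This complex acts at the last step of messenger RNA synthesis, where the nascent transcript is cut behind its polyadenylation signal and RNA polymerase II is then released from the template. Pcf11 binds the tail of the polymerase and is known for its role in this release. In the testis, germ cells pass from dividing spermatogonia through a long spermatocyte stage, in which most genes for sperm formation are transcribed, to meiosis and spermatids. The driver uses the promoter of bam, which is active in late spermatogonia and early spermatocytes, whereas whole testes were sequenced.

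The Pcf11 library had 79053532 reads assigned to genes on the sense strand, and the controls had 76132580 and 73600622. Levels are CPM, each gene's count relative to the library's total, scaled with the TMM factors of edgeR. The 2 cbc knockdown libraries of the series (hairpin stock 77426) entered the gene filter, the TMM scaling and the model's estimate of spread. Because 1 Pcf11 library stood against 2 controls, its own variation was taken to equal that of the other libraries, and no difference below has a replicate check of its own. Whether libraries of the same genotype were grown separately is not stated in the labels. The p-values therefore measure only how these samples vary, and that variation may be technical. In bulk RNA, fewer cells of a type and less RNA per cell cannot be told apart. Nor can the knockdown be told apart from the presence of a hairpin or from other genetic differences between the genotypes. Testis identity was clear from the germ line tubulin gene betaTub85D, at 4671.8 CPM in the Pcf11 library and 2953.8 and 2982.3 CPM in the controls.

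The hairpin's target was lower in the Pcf11 library. Pcf11 (FBgn0264962, 2R from 14860936 to 14871071, minus strand, BDGP6) had 24.2 CPM in the Pcf11 library, against 49.9 and 54.7 CPM in the controls. Its log2 fold change was -1.11 ± 0.10 (SE), with an edgeR adjusted p of 3.0e-06. Its partner cbc (FBgn0033842) had 63.9 CPM in the Pcf11 library and 52.5 and 56.9 CPM in the controls. That difference did not pass (0.22 ± 0.11, edgeR adjusted p = 0.0968), and it depended on the scaling: with RLE scaling it passed (0.37, edgeR adjusted p = 0.00981), and with library totals its sign turned (-0.0625).

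Most measured genes differed. Of 13960 genes tested, 69.0% passed the threshold of an adjusted p of 0.05, with 4555 higher (32.6%) and 5075 lower (36.4%) in the Pcf11 library. At least 2-fold differences were called for 1935 genes higher (13.9%) and 2768 lower (19.8%), and the log2 fold changes of the tested genes had a median of -0.06. Counts of listed genes below are to be read against these shares. The balance depended on the scaling: with library totals, 3280 genes were called higher and 6467 lower, 1233 were higher at least 2-fold, and the median moved by -0.29. With RLE scaling and with DESeq2 it went the other way: calls higher outnumbered calls lower, and the median was 0.09 in each. The gene lists were chosen with earlier results of these data known.

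Fold changes differed with the control level and the form of the gene. Among the 13393 genes with at least 10 reads in both controls, the median log2 fold change was 0.06 in the lowest decile of control level. It was -0.45 in deciles 4 and 5 and 0.38 in decile 10, where 57.8% of genes were called higher and 23.2% lower. Coding genes that span 20 kb or more had a median of -0.37 and were lower at least 2-fold in 32.1% of cases, against 16.9% for those under 1 kb. Genes on the small chromosome 4 had a median of -0.37 and X-linked genes one of -0.20, while the autosomal arms lay between -0.13 and -0.07.

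**Figure D1:**
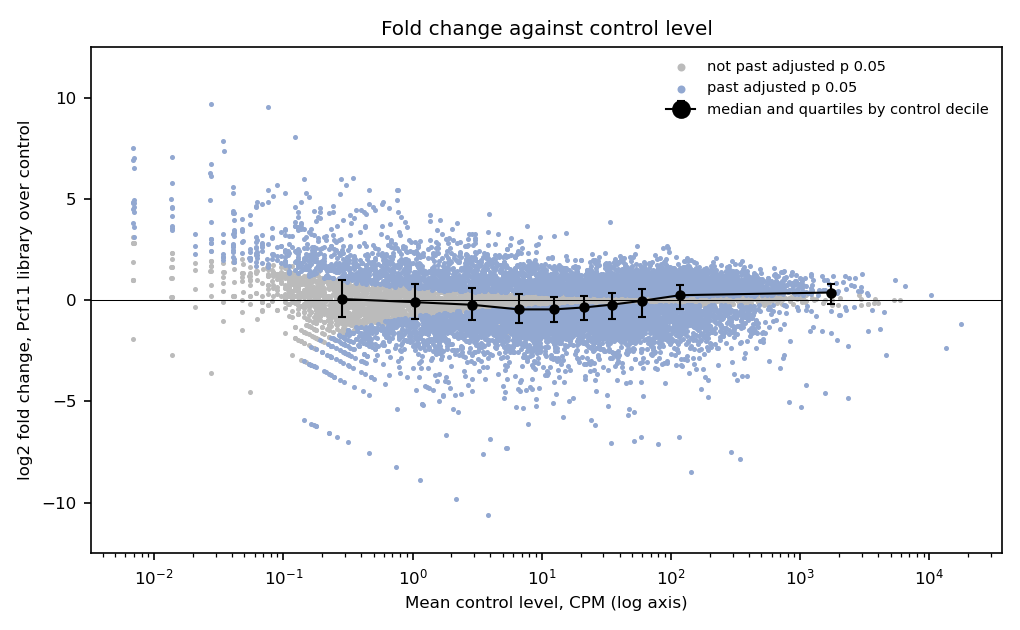
Log2 fold change (Pcf11 library over control) of each tested gene against its mean control level in CPM on a log axis, leaving out genes with no control read. Black points give the median and quartiles of each decile of the control level among genes with at least 10 reads in both controls, and these medians dip to -0.45 in the middle and reach 0.38 at the top.

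Among genes of the 3' end machinery, the subunits moved apart. Of 8 tested genes for CPSF, the complex that reads the polyadenylation signal, and its endonuclease partners, 1 rose and 3 fell, with a list median of -0.22. Wdr33, which contacts the signal itself, had 139 CPM in the Pcf11 library and 64.6 and 67.4 CPM in the controls (1.08 ± 0.09). The phosphatase gene Ssu72 (-1.28 ± 0.14) and the scaffold gene Fip1 (-0.94 ± 0.12) fell. Of 4 tested CstF and CFI genes, su(f), the fly CstF77, rose (0.75 ± 0.11) and CstF50 fell (-0.54 ± 0.14, a call lost with DESeq2), and of 5 genes listed for nuclear tail synthesis 2 rose and 1 fell. The zinc finger gene ZC3H3 rose (0.94 ± 0.11), and hrg, the nuclear poly(A) polymerase gene, fell by 0.29 on the log2 scale, a call lost with RLE scaling and with DESeq2. The list also held PAPLA1, a phospholipase gene with no role in tail synthesis, which rose (1.14 ± 0.09).

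All 11 tested genes of cytoplasmic poly(A) control passed the test, 6 higher and 5 lower, with a median of 0.68. Gld2, a cytoplasmic poly(A) polymerase, had 1054.1 CPM in the Pcf11 library, against 379 and 342 CPM in the controls (1.55 ± 0.11). The transcript of orb, an RNA-binding partner that promotes tail extension, stood at 1073.0 CPM in the Pcf11 library and 409 and 369 CPM in the controls (1.46 ± 0.11). Not1, the scaffold of the deadenylase complex, also rose (1.23 ± 0.10). In the other direction, the translational repressor genes nanos (-1.61 ± 0.23) and pum (-1.20 ± 0.11) fell.

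Elongation and termination factors split as well. Of 20 tested genes 7 rose and 9 fell, and the list median of -0.07 was above 0 with RLE scaling. Rat1, the nuclease that degrades RNA behind the cleavage site, had 4.59 CPM in the Pcf11 library and 13.7 and 15.3 CPM in the controls (-1.66 ± 0.16). The chaperone genes Ssrp (-2.04 ± 0.15) and Spt6 (-1.85 ± 0.12) were the lowest, and the elongation factor gene Spt5 fell by 1.45 on the log2 scale. CycT, a subunit of the kinase that releases paused polymerase, stood at 316 CPM in the Pcf11 library and at 119 and 117 CPM in the controls (1.42 ± 0.10). Among 17 genes of the nuclear exosome and of 5' to 3' decay, 9 rose and 7 fell. The exosome nuclease gene Rrp6 stood at 823 CPM in the Pcf11 library, against 276 and 262 CPM in the controls (1.61 ± 0.10), while the core subunit gene Rrp46 (-2.05 ± 0.20) and the nuclease gene Dis3 (-1.89 ± 0.18) fell.

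Integrator is the complex that cuts small nuclear RNA precursors, and all 13 of its tested genes passed, 4 higher and 9 lower (median -0.69). IntS4 had 1.999 CPM in the Pcf11 library and 7.30 and 7.64 CPM in the controls (-1.90 ± 0.19). IntS9, a partner of the catalytic subunit, had 2.49 CPM in the Pcf11 library and 7.33 and 7.81 CPM in the controls (-1.60 ± 0.18). The catalytic subunit gene IntS11 fell by 0.68 on the log2 scale, and asun rose most (0.86 ± 0.12).

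Most of the small nuclear RNA genes tested were higher. These RNAs normally carry no poly(A) tail and enter such a library at low levels. Of 31 listed genes 17 were tested, and 13 of these had at least 10 reads in both controls. Of the 13, 11 rose, all at least 2-fold, and 0 fell, with a median of 3.04. The other 4 tested genes reached the filter with the help of a knockdown library, in which genes that are high pass more easily, and 3 of them rose. Over all 31 genes the summed level was 95.1 CPM in the Pcf11 library and 10.7 and 12.1 CPM in the controls. The genes of U11 and U12, RNAs of the minor spliceosome, rose. The other minor spliceosome genes were not tested: snRNA:U4atac had 14 reads in the Pcf11 library, against 3 and 3 in the controls, and snRNA:U6atac had 6 reads in the Pcf11 library, against 5 and 8 in the controls. snRNA:U11 (3L from 3893056 to 3893330, minus strand) had 20.4 CPM in the Pcf11 library, against 1.30 and 1.42 CPM in the controls (3.903 ± 0.15, edgeR adjusted p = 3.6e-09). snRNA:U12 had 11.03 CPM in the Pcf11 library and 0.791 and 1.01 CPM in the controls (3.61 ± 0.20). The 7SK gene snRNA:7SKa, a product of RNA polymerase III, rose less (1.65 ± 0.21). Copies of U1, U2, U4 and U5 are near-identical, so their reads are uncertain between copies. These reads cover the gene interval, and whether they end at the mature 3' end cannot be read from counts per gene.

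**Figure D2:**
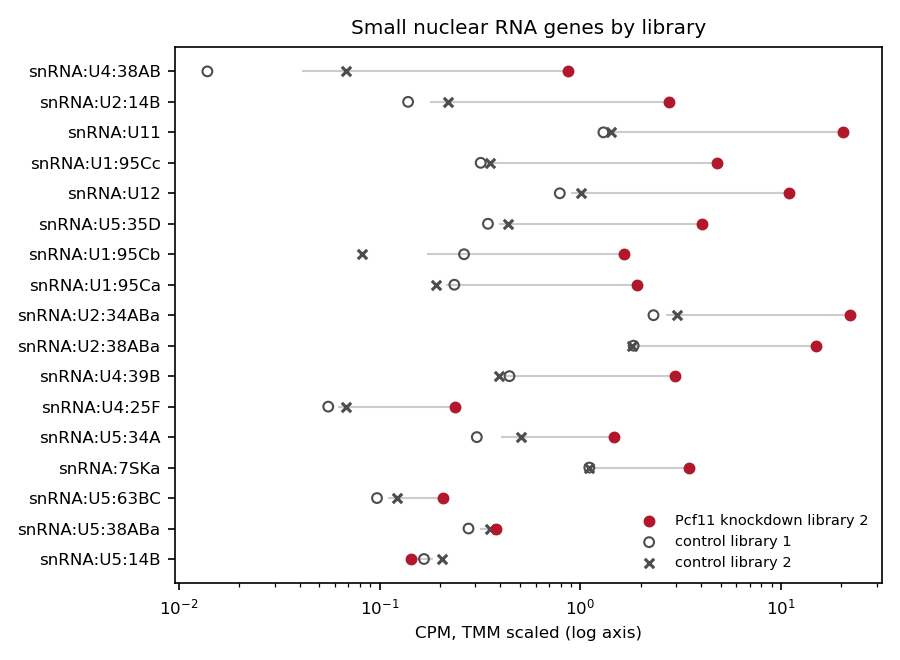
CPM on a log axis of the 17 tested small nuclear RNA genes in the Pcf11 library (filled red), control library 1 (open circle) and control library 2 (cross), ordered by fold change. In 14 genes the Pcf11 library lies to the right of both controls by at least 2-fold, and snRNA:U5:14B at the bottom lies left of them.

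The largest rises were of genes that were low in the controls. lncRNA:CR42836 (3R from 20139148 to 20139921, minus strand) had 25.0 CPM in the Pcf11 library and 0.0139 and 0.0409 CPM in the controls. Those values are 1575 reads against 4 in both controls together, a 908-fold difference with a 95% interval of 354 to 3338 for counting error only. lncRNA:CR43263 stood at 58.8 CPM in the Pcf11 library and 0.0694 and 0.0818 CPM in the controls (9.55 ± 0.35, SE), and lncRNA:CR44344 at 34.2 CPM in the Pcf11 library and 0.153 and 0.0955 CPM in the controls (8.08 ± 0.40). The coding genes in this set were CG33307 (6.02 ± 0.23), CG12592, CG3081 (5.43 ± 0.17), the zinc transporter gene Zip89B, CG14826 (4.96 ± 0.17), CG42819, CG14606 and CG8563 (3.98 ± 0.18). All lay far above both controls, which differed far less from each other. In Pcf11 library 1, spliced reads crossed annotated introns of lncRNA:CR42836 (127 reads), lncRNA:CR43263 (202 reads), lncRNA:CR44344 (73 reads), CG33307 (254 reads) and CG8563 (425 reads), but 0 crossed those of CG3081.

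The largest falls included genes that were well expressed in the controls. CG16772 (2L from 19962679 to 19963844, plus strand) had 0.397 CPM in the Pcf11 library and 120 and 165 CPM in the controls (-8.48 ± 0.39, SE, edgeR adjusted p = 2.4e-09). Its 25 reads against 20682 in both controls put it 359-fold lower (95% interval 243 to 554). CG12506 had 1.51 CPM in the Pcf11 library, against 335 and 346 CPM in the controls (-7.82 ± 0.15). It lies on 2L from 773547 to 774017 beside CG13946 (-7.07 ± 0.35) and CG13947 (-6.75 ± 0.20), which end at 779655 and fell with it. CG32457 had 1.63 CPM in the Pcf11 library and 315 and 272 CPM in the controls (-7.49 ± 0.18). Pcf11 library 1 held 0 reads across the only intron of CG16772 and 0 across that of CG32457. For scale, 184 other coding genes with 1 intron, a control level of 50 to 350 CPM and a fold change near 0 had a median of 651 such reads in that library.

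CG42827 (-7.12 ± 0.25), CG17917 (-6.96 ± 0.28), CG42870 (-6.76 ± 0.26) and CG13728 (-5.51 ± 0.34) fell as well. CAH5, a carbonic anhydrase gene, had 0.92 CPM in the Pcf11 library and 45.7 and 47.7 CPM in the controls (-5.66 ± 0.20). Cpr92A, a cuticle protein gene, had 0.365 CPM in the Pcf11 library and 24.2 and 27.5 CPM in the controls (-6.14 ± 0.28). Cyp4g1, a cytochrome P450 gene of hydrocarbon synthesis, had 0.397 CPM in the Pcf11 library and differed between the controls (13.5 and 34.3 CPM).

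**Figure D3:**
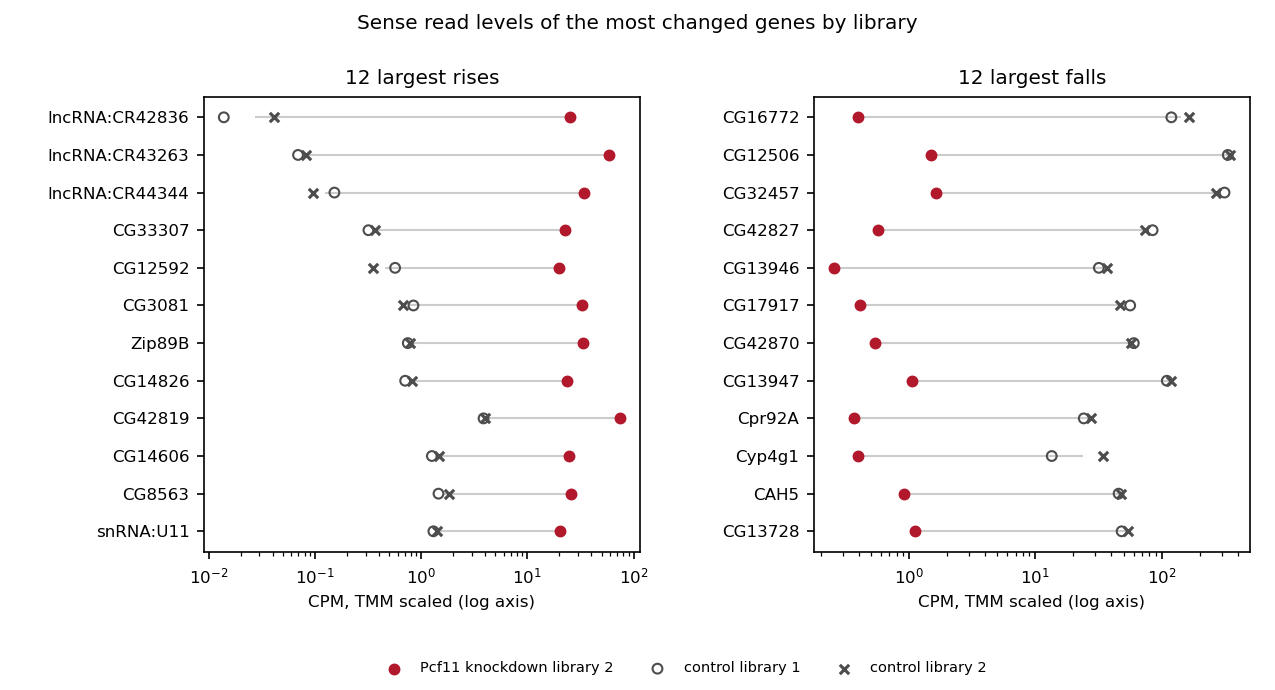
CPM on log axes of the 12 largest rises (left) and the 12 largest falls (right) among genes with a mean of at least 10 CPM over the group means, in the Pcf11 library (filled red), control library 1 (open circle) and control library 2 (cross). In every row the Pcf11 library lies apart from both controls, by at least 10-fold for the rises, and Cyp4g1 shows the widest gap between controls.

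Among genes that were low in control, the share called higher differed with the gene upstream. Genes under 1 CPM per kb of exon in control, with at least 10 reads in both controls, were taken as low, and neighbours at 10 CPM per kb or more as expressed. Of 194 low genes with such a neighbour ending within 1 kb upstream, 77 (39.7%) were called higher at least 2-fold. The share was 18.1% (73 of 404) where the upstream neighbour was itself under 10 CPM per kb and 19.9% (294 of 1474) where none lay within 1 kb, while over all 2072 low genes it was 21.4%. By distance to the expressed neighbour it was 45.8% of 72 genes at 0 to 250 bases (Wilson 95% interval 34.8 to 57.3%, counting error only), 36.1% at 250 to 1000 bases, 23.6% at 1000 to 3000 bases and 23.8% at 3000 to 10000 bases. Behind neighbours of 100 CPM per kb or more within 1 kb it was 51.2% of 41 genes. Where the expressed gene lay upstream on the other strand, the shares were 28.0% of 25 genes, 24.1%, 17.0% and 20.3% over the same distances. Among genes of 10 CPM per kb or more in control, the share was 10.9% of 761 with an expressed neighbour within 1 kb and 10.8% of 883 with a neighbour under 10 CPM per kb. These shares over genes were not tested, since genes are not replicates.

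**Figure D4:**
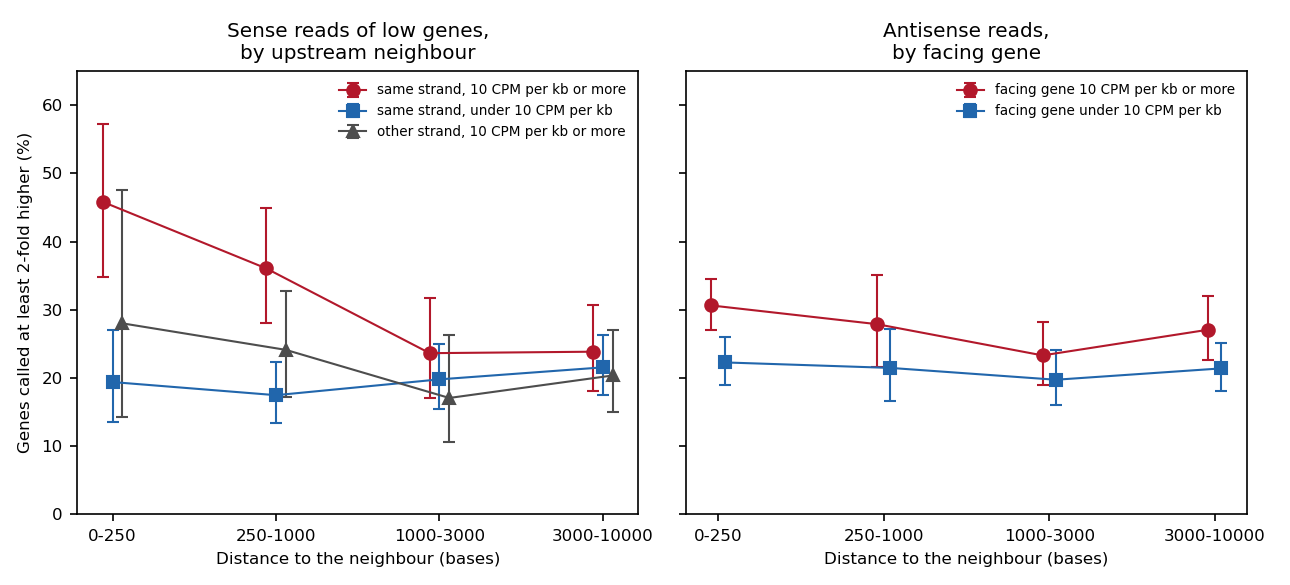
Percent of genes called at least 2-fold higher in the Pcf11 library, with Wilson 95% intervals, by distance in bases to the neighbouring gene. Left: sense reads of low genes by the gene upstream, where the nearest genes behind an expressed same-strand neighbour reach 45.8%. Right: antisense reads of genes that overlap no other-strand gene, by the level of the gene facing their 3' end, where the highest share is 30.6%. The right panel has no read minimum in the controls.

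CG12592 (3R from 10338342 to 10340872, plus strand) starts 76 bases behind sle, a gene at 177 CPM in control. It had 19.98 CPM in the Pcf11 library and 0.569 and 0.355 CPM in the controls (5.43 ± 0.22, SE). Zip89B (3R from 16305758 to 16308700, plus strand) starts 989 bases behind the kinase gene gish, at 670 CPM in control, and had 33.2 CPM in the Pcf11 library, against 0.749 and 0.791 CPM in the controls (5.42 ± 0.15). CG42819, which at 6.49 CPM per kb in control was above the limit for low genes, lies 549 bases behind CG42820 and had 74.3 CPM in the Pcf11 library and 3.87 and 3.97 CPM in the controls (4.24 ± 0.11), and the low gene CG14606 lies 595 bases behind CG14605 (4.19 ± 0.15). Further low genes with an expressed gene upstream were named after their values were seen. The kinase gene Mos lies 89 bases behind Taz (11.9 CPM in the Pcf11 library, 0.416 and 0.573 CPM in the controls), and the neuropeptide gene SIFa 103 bases behind CG4681 (11.3 CPM in the Pcf11 library, 0.444 and 0.573 CPM in the controls). Gr66a, a bitter taste receptor gene, lies 164 bases behind BI-1 (3.95 CPM in the Pcf11 library, 0.250 and 0.136 CPM in the controls).

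Spliced reads of Pcf11 library 1 also joined exons of different genes. In 553 junctions with 3347 unique reads, the donor lay in 1 gene and the acceptor in another on the same strand. Of these reads, 84 joined sle to CG12592, 264 joined CG6961 to CG18259 and 339 joined Alms1a to Alms1b, while 866 joined ProtB to ProtA, whose level did not differ in library 2 (0.07 ± 0.09). Alms1a and Alms1b, and likewise ProtA and ProtB, are close copies, so their joining reads are uncertain. Of the 41 gene pairs joined by at least 10 reads, the downstream gene was at least 2-fold higher in library 2 in 14 (34.1%). Over all genes tested that share was 13.9%, but the pairs were chosen by reads in a Pcf11 knockdown library. Genes that are high there pass more easily, so no conclusion is drawn from the difference. No junction reads of the controls were used here, so it was not tested whether such joins were more frequent than without the knockdown.

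Antisense reads were also set against the neighbouring gene, but with no read minimum in the controls. Genes entered with at least 10 antisense counts in any 2 of the 5 libraries. Those that are high in a knockdown library pass more easily, which can raise the shares called higher. Of 8524 genes tested for reads on their opposite strand, with the library sizes of the sense reads, 2255 (26.5%) were higher and 1305 (15.3%) lower, and 1669 (19.6%) and 986 (11.6%) at least 2-fold. Their median log2 fold change was 0.20, and when the antisense counts were scaled on their own the calls were 1875 higher and 1757 lower. Among genes that overlap no other-strand gene, 30.01% of the 743 whose 3' end faces an expressed gene within 1 kb were higher at least 2-fold. That share was 21.99% where the facing gene was under 10 CPM per kb and 18.8% where none lay within 1 kb. Summed antisense levels of those 743 genes were 1153 CPM in the Pcf11 library and 708 and 673 CPM in the controls. By distance to an expressed facing gene the share was 30.6% at 0 to 250 bases, 27.9% at 250 to 1000, 23.3% at 1000 to 3000 and 27.1% at 3000 to 10000 bases. Opposite weaker facing genes it was 22.3%, 21.5%, 19.7% and 21.4%. With the antisense counts scaled on their own, the nearest band had 26.3% opposite expressed and 18.2% opposite weaker genes. These distance bands were added after the data had been seen.

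The 5 largest antisense rises among genes with at least 5 antisense CPM in the Pcf11 library all faced another gene within 100 bases. Of all 4040 genes tested that overlap no other-strand gene, taken without that level cut, 19.5% did. The limit of 100 bases was not planned, so this is not a like comparison. Adgf-C, an adenosine deaminase gene (3R from 13706757 to 13709129, plus strand), had 15.4 antisense CPM in the Pcf11 library, against 0.1249 and 0.0818 in the controls (7.19 ± 0.35, SE). It faces Argp across 29 bases, and Argp itself had 16.1 CPM in the Pcf11 library and 1.94 and 2.15 CPM in the controls. Elo68beta, a fatty acid elongase gene, faces APP-BP1 across 96 bases and had 6.68 antisense CPM in the Pcf11 library, against 0.1249 and 0.136 in the controls (5.65 ± 0.34). Rift, a riboflavin transporter gene, faces CG1971 across 97 bases and had 33.8 antisense CPM in the Pcf11 library, against 1.53 and 1.06 in the controls (4.71 ± 0.18). Its sense level moved the other way, at 11.5 CPM in the Pcf11 library and 44.8 and 42.5 CPM in the controls (-1.93 ± 0.12). CG9328 faces CG33322 across 5 bases (4.04 ± 0.20) and the cadherin gene kug faces CG14183 across 79 bases (3.76 ± 0.21). Without regard to strand, the call of Rift was lost (-0.10), and Adgf-C had a fold change of 3.73 in place of its sense value of -0.92.

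In the germ line, genes of the earliest stage were called lower more often than higher, but their summed level was higher. Of 12 spermatogonial and stem cell genes 3 rose and 7 fell (median -0.50). Together they had 570 CPM in the Pcf11 library and 389 and 400 CPM in the controls. The gap junction gene zpg had 2.13 CPM in the Pcf11 library, against 10.05 and 11.3 CPM in the controls (-2.33 ± 0.23). The piRNA factor gene aub (-1.91 ± 0.14) and the helicase gene vas (-1.84 ± 0.19) followed, and bam itself, the source of the driver's promoter, had 3.84 CPM in the Pcf11 library and 6.72 and 8.605 CPM in the controls (-0.996 ± 0.19). In contrast, mei-P26, which acts with bam in the switch from proliferation to differentiation, rose (1.53 ± 0.10), as did its partner gene bgcn (1.13 ± 0.10). Of 16 piRNA pathway genes, which include aub and vas, 5 rose and 10 fell (median -0.74), with shu lowest (-2.35 ± 0.20) and zuc, the piRNA-generating nuclease gene, highest (1.15 ± 0.16).

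Transcription regulators of spermatocytes were called lower more often than higher, mostly by small amounts. Of 5 testis TAF genes 1 rose and 3 fell, and of 10 genes of the testis meiotic arrest complex tMAC and its partners 1 rose and 6 fell, with medians of -0.68 and -0.51. The tMAC genes wuc (-1.32 ± 0.11) and aly (-0.97 ± 0.11) changed most. The TAF gene nht had 13.1 CPM in the Pcf11 library and 27.0 and 28.7 CPM in the controls. The TAF gene mia rose, with 172 CPM in the Pcf11 library and 88.8 and 87.1 CPM in the controls (0.96 ± 0.09). The TAF list summed to 357 CPM in the Pcf11 library and 323 and 329 CPM in the controls. The tMAC list summed to 397 CPM in the Pcf11 library and 476 and 505 CPM in the controls. Products that spermatocytes accumulate did not share this direction: of 13 such genes 7 rose and 5 fell. Among these, fzo, the mitofusin of spermatids, had 487 CPM in the Pcf11 library and 136 and 122 CPM in the controls (1.92 ± 0.14).

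Genes of the meiotic divisions were mostly higher. Of 15 regulators 10 rose and 2 fell (median 0.90). The Cdc25 phosphatase gene twe had 300 CPM in the Pcf11 library and 106 and 104 CPM in the controls (1.52 ± 0.11), whereas Cdk1, which encodes the kinase that Cdc25 proteins activate, had 17.0 CPM in the Pcf11 library and 34.0 and 35.5 CPM in the controls (-1.03 ± 0.13). Of 20 spindle and kinetochore genes 13 rose and 3 fell (median 0.60), led by the kinesin gene Klp67A (1.63 ± 0.10), the kinetochore scaffold gene Spc105R (1.35 ± 0.10) and the midzone gene feo (1.30 ± 0.11). Of 14 centriole and basal body genes 9 rose and 2 fell (median 0.69). ana1, a centriole assembly gene, stood at 348 CPM in the Pcf11 library and 56.0 and 53.9 CPM in the controls (2.66 ± 0.13), and the gene of the centriole kinase SAK rose (1.58 ± 0.09).

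Cytokinesis genes went the other way, with 3 of 12 higher and 8 lower (median -0.89). The septin gene pnut had 9.66 CPM in the Pcf11 library, against 51.1 and 52.3 CPM in the controls (-2.42 ± 0.15), and the GTPase gene Rho1 (-1.67 ± 0.11) and the formin gene dia (-1.36 ± 0.12) fell. These 3 genes are also used in many somatic cells. Of 12 chromosome pairing and cohesion genes 7 rose and 3 fell, and the core cohesin gene SMC3 (-1.73 ± 0.17) stood against the meiotic cohesion genes sunn (1.44 ± 0.15) and mei-S332 (1.26 ± 0.09).

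Spermatid genes were called higher more often than lower, without a common size. For comparison, 57.8% of all genes in the highest decile of control level were called higher, with a median of 0.38. All 8 sperm leucylaminopeptidase genes (the S-Lap genes and loopin-1), which encode abundant proteins of sperm mitochondria, rose by 0.72 to 1.27 on the log2 scale. Together they had 46038 CPM in the Pcf11 library and 24505 and 22095 CPM in the controls. Of 18 tested genes of the cup and comet classes, whose transcription is postmeiotic, 11 rose and 1 fell (median 0.46). With 3 untested genes they summed to 7945 CPM in the Pcf11 library and 8568 and 7876 CPM in the controls. f-cup had 805 CPM in the Pcf11 library and 256 and 227 CPM in the controls (1.74 ± 0.10), p-cup rose (1.45 ± 0.09), and scpr-C was the gene that fell. The list also held cutlet, a replication clamp loader gene, which rose (2.73 ± 0.14). Of 13 genes listed for sperm chromatin, which include the chaperonin gene Hsp60B (1.06 ± 0.13), 10 rose and 1 fell (median 0.54), and of 16 other spermatid genes 10 rose and 2 fell (median 0.54). The sperm chromatin list summed to 9323 CPM in the Pcf11 library and 6718 and 6284 CPM in the controls. The other spermatid genes summed to 9087 CPM in the Pcf11 library and 7294 and 6209 CPM in the controls. The median of 12 Mst genes, most of them of the sperm tail, of which 5 rose and 2 fell, was 0.12 and below 0 with library totals. Their summed level was below both controls, at 10836 CPM in the Pcf11 library and 12794 and 11606 CPM in the controls. Mst89B stood at 425 CPM in the Pcf11 library and at 188 and 180 CPM in the controls (1.21 ± 0.09), while Mst84Db, one of a cluster of close copies, fell (-1.54 ± 0.12).

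Of 13 axonemal dynein and assembly genes 8 rose and 3 fell. The dynein heavy chain gene Dhc16F had 342 CPM in the Pcf11 library and 93.1 and 85.5 CPM in the controls (1.94 ± 0.13), whereas the assembly factor gene Zmynd10 had 98.8 CPM in the Pcf11 library and 286 and 309 CPM in the controls (-1.59 ± 0.10). The list also held nop5, a nucleolar protein gene with no such role, which fell (-1.56 ± 0.20). Of 14 mitochondrial fusion and nebenkern genes 9 rose and 2 fell, and of 13 individualization genes 6 rose and 3 fell, with a median of 0.15 that was below 0 with library totals. Of 11 tested Y-linked fertility genes 4 rose and 2 fell. Control library 1 was above control library 2 for 10 of them, and the list median of 0.12 was below 0 with library totals. Pp1-Y1, a Y-linked phosphatase gene that failed the filter, had 765 reads (12.1 CPM) in the Pcf11 library, against 1 and 2 reads in the controls.

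**Figure D5:**
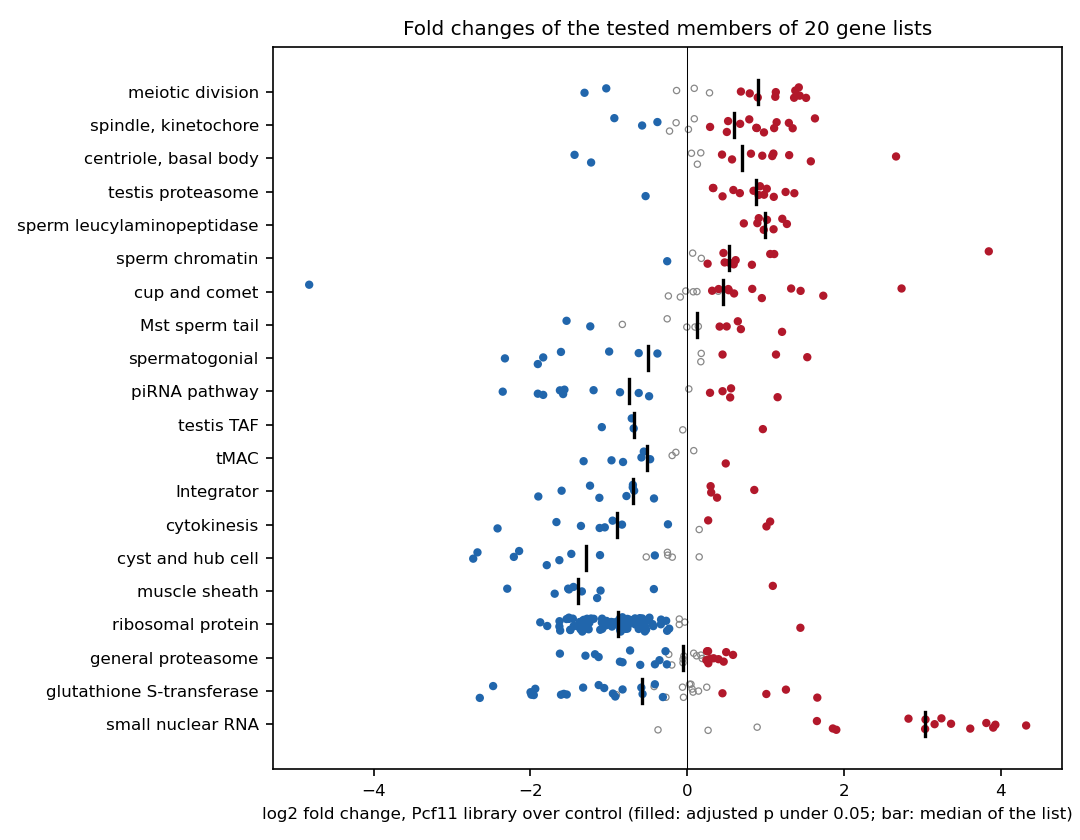
Log2 fold changes (Pcf11 library over control) of the tested members of 20 gene lists, with filled points past an adjusted p of 0.05 (red higher, blue lower), open points not past it, and a black bar at each list median. Medians range from -1.40 for the muscle sheath to 3.04 for small nuclear RNA genes, and the testis proteasome list (0.88) lies right of the general one (-0.05).

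Paralogs used in the testis and their general counterparts differed in level change for the proteasome. Of 14 testis proteasome genes 13 rose and 1 fell (median 0.88). Prosbeta5R2 had 299 CPM in the Pcf11 library and 121 and 111 CPM in the controls (1.37 ± 0.10). Of 31 general proteasome genes 10 rose and 12 fell, with a median of -0.05 that was above 0 with RLE scaling. Prosalpha4, for example, had 23.5 CPM in the Pcf11 library and 72.1 and 73.0 CPM in the controls (-1.62 ± 0.13). Of 12 translation initiation factor genes 6 rose and 3 fell. eIF4E7 rose (1.38 ± 0.10) and eIF4G1, the general scaffold gene, had 69.2 CPM in the Pcf11 library and 191 and 176 CPM in the controls (-1.41 ± 0.10), while the germ line scaffold gene eIF4G2 rose by 0.73 on the log2 scale.

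Cytoplasmic ribosomal protein genes were lower almost throughout: 1 of 91 rose and 87 fell (median -0.89), 39 of them at least 2-fold. Their summed level was 13800.3 CPM in the Pcf11 library and 24163 and 25625 CPM in the controls. RpL22 had 23.5 CPM in the Pcf11 library, against 81.7 and 90.5 CPM in the controls (-1.88 ± 0.15). The gene that rose was RpL10Aa, a testis-enriched paralog, at 325 CPM in the Pcf11 library and 134 and 105 CPM in the controls (1.44 ± 0.13). Of 71 mitochondrial ribosomal protein genes 9 rose and 36 fell (median -0.33). Splicing genes were mostly lower, with 3 of 18 higher and 12 lower (median -0.62), and Prp8, the core of the spliceosome, had 28.6 CPM in the Pcf11 library and 81.4 and 96.2 CPM in the controls (-1.63 ± 0.13). Of 16 glycolysis genes 7 rose and 8 fell. The hexokinase gene Hex-A (-2.46 ± 0.16) and Ldh (-2.01 ± 0.16) fell, and Ald2 (1.02 ± 0.12) rose.

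Most markers of somatic testis cells were lower. Of 14 marker genes of the hub and the cyst cells 0 rose and 9 fell (median -1.30), and their summed level was 210 CPM in the Pcf11 library and 439 and 445 CPM in the controls. The ligand gene hh had 4.09 CPM in the Pcf11 library and 26.9 and 27.5 CPM in the controls (-2.73 ± 0.16). The adhesion gene Fas3 (-2.68 ± 0.11) and tj, which encodes a transcription factor of early cyst cells (-2.21 ± 0.29), also fell. Other genes of the list did not pass, among them eya at 50.0 CPM in the Pcf11 library and 57.9 and 61.4 CPM in the controls, and the hub ligand gene upd1 at 14.1 CPM in the Pcf11 library and 16.7 and 16.8 CPM in the controls. Of 10 muscle sheath genes 1 rose and 9 fell (median -1.40), with summed levels of 608 CPM in the Pcf11 library and 995 and 997 CPM in the controls. The troponin T gene up (-2.30 ± 0.18) and the myosin gene Mhc (-1.69 ± 0.16) fell, and the titin gene sls rose (1.09 ± 0.14). The part of these cells in the germ line differences and in that of the ribosomal protein genes was not tested.

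Markers of neighbouring tissues did not share a direction. Accessory gland genes differed between the controls. The 10 tested accessory gland genes summed, with 1 untested gene, to 119 CPM in the Pcf11 library and 93.2 and 240.0 CPM in the controls, and 0 rose and 1 fell. Ejaculatory duct and bulb genes were lower in the Pcf11 library, with a summed 76.4 CPM in the Pcf11 library and 225 CPM in each control, with 3 of 6 lower, mainly through EbpIII (-1.80 ± 0.11). Of 6 haemocyte genes 1 rose and 5 fell, and with 1 untested gene they summed to 122 CPM in the Pcf11 library and 251 and 242 CPM in the controls. Of 9 genes listed for fat body 8 rose and 1 fell, and of the 8 with at least 10 reads in both controls 7 rose and 1 fell (median 1.30). The larval serum protein gene Lsp2 had 11.8 CPM in the Pcf11 library and 2.94 and 3.46 CPM in the controls (1.88 ± 0.16), and Fbp1 had 7.33 CPM in the Pcf11 library and 0.4996 and 0.668 CPM in the controls (3.64 ± 0.42). The yolk protein gene Yp2 did not reach the filter and Yp1 stood at 0.222 CPM in the Pcf11 library and 0.0416 and 0 CPM in the controls. The list also held Npl4, a widely used degradation factor (0.35 ± 0.09). Of 9 terminal epithelium and pigment genes 3 rose and 3 fell, with Ggt-1 at 4.86 CPM in the Pcf11 library and 37.1 and 40.9 CPM in the controls (-3.01 ± 0.15). The pigment transporter gene w, a marker carried by many fly transgenes, stood at 257 CPM in the Pcf11 library and 73.2 and 82.9 CPM in the controls (1.72 ± 0.11). Of 7 tracheal and neuronal genes 2 rose and 3 fell.

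Of 6 genes of the siRNA and microRNA pathways 1 rose and 3 fell, and their summed level was 811 CPM in the Pcf11 library and 778 and 804 CPM in the controls. Dcr-2, which cuts long double-stranded RNA, had 32.5 CPM in the Pcf11 library and 168 and 175 CPM in the controls (-2.40 ± 0.13), and the Argonaute genes AGO1 (-1.62 ± 0.11) and AGO2 (-1.20 ± 0.10) fell. The gene of the Dicer partner loqs rose, with 619 CPM in the Pcf11 library and 333 and 341 CPM in the controls (0.88 ± 0.10), and r2d2 and Dcr-1 did not pass. Of 17 heat shock genes 2 rose and 7 fell, led by Hsp68 (-1.45 ± 0.13). Of 8 cell death and damage genes 1 rose and 6 fell, and rpr, a death activator, had 0.349 CPM in the Pcf11 library and 2.83 and 3.11 CPM in the controls (-3.08 ± 0.31). Of 10 antimicrobial peptide genes 4 rose and 5 fell. AttD had 0 reads in the Pcf11 library, against 60 and 48 in the controls, at least 15.6-fold lower against a floor of 3 reads per library. Of 34 glutathione S-transferase genes 4 rose and 19 fell (median -0.58), with GstD3 at 16.04 CPM in the Pcf11 library and 112 and 88.8 CPM in the controls (-2.65 ± 0.14). Of 13 zinc transporter genes 4 rose and 8 fell, Zip71B being lowest (-2.10 ± 0.16).

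Chemoreceptor genes were called higher more than lower, as were genes of the lowest control level in general. In the lowest decile of control level, 25.3% of all genes were called higher and 13.2% lower. Of 40 tested ionotropic receptor genes, 25 had at least 10 reads in both controls, and of these 15 rose and 2 fell (median 0.61). Of 60 tested odorant and gustatory receptor genes, 40 had as many reads in both controls, and of these 14 rose and 5 fell (median 0.29). Or46a reached 10.5 CPM in the Pcf11 library, against 0.305 and 0.245 CPM in the controls (5.24 ± 0.24), and Ir51a 2.75 CPM in the Pcf11 library, against 0.153 and 0.109 CPM in the controls (4.37 ± 0.34). A further 26 ionotropic and 60 odorant and gustatory receptor genes did not reach the filter. Of 1184 tested long noncoding RNA genes, 1070 had at least 10 reads in both controls, and of these 328 rose and 273 fell. Over all genes with as many reads in both controls, 32.3% were called higher and 37.9% lower.

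By abundance, the largest gains were of sperm leucylaminopeptidase genes and other testis genes. S-Lap1 had 10737 CPM in the Pcf11 library and 5699.9 and 5216 CPM in the controls (0.98 ± 0.10), and loopin-1 had 7307 CPM in the Pcf11 library and 3269 and 2786 CPM in the controls (1.27 ± 0.12). Outside that family, salto had 5610.4 CPM in the Pcf11 library and 2602 and 2728 CPM in the controls (1.07 ± 0.10), and CG12699 (1.20 ± 0.10) and CG3982 (1.21 ± 0.10) rose. The largest loss was of CG18628, at 2630.1 CPM in the Pcf11 library and 12416 and 14567 CPM in the controls (-2.36 ± 0.20). Jhbp5, a juvenile hormone binding protein gene, had 707 CPM in the Pcf11 library and 4727 and 4545 CPM in the controls (-2.71 ± 0.15). The close copies scpr-C and scpr-A, whose shared reads are uncertain, had 82.4 and 64.9 CPM in the Pcf11 library (-4.82 ± 0.12 and -4.59 ± 0.13). The metallothionein gene MtnA (-2.24 ± 0.13), the cytoplasmic actin gene Act5C (-1.97 ± 0.12) and the odorant-binding protein gene Obp44a (-1.40 ± 0.12) also fell. The mitochondrial transcript mt:lrRNA stood at 7684 CPM in the Pcf11 library, but the controls differed more than 2-fold from each other (24069 and 10782 CPM).

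A total of 110 genes had at least 10 reads in the Pcf11 library and fewer than 10 in each of the other 4 libraries counted. Of these, 4 reached 100 reads. Among them CG8960, chosen after its values were seen, had 300 reads in the Pcf11 library and 0 in both controls, at least 114-fold higher against a floor of 3 reads per library. By a looser rule that set no limit on the cbc libraries, 341 genes had at least 10 reads in both controls and fewer than 10 in the Pcf11 library. Of these 341, 24 had at least 100 reads in both controls. Because the rules differ, the counts of 110 and 341 cannot be compared. Cpr62Bc, a cuticle protein gene likewise chosen, had 0 reads in the Pcf11 library, against 244 and 312 in the controls, at least 80.3-fold lower.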

How the data were processed

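Testes of D. melanogaster were sequenced with a directional kit after polyA selection, per the labels' protocols. The authors deposited STAR counts of uniquely mapped reads per gene as whole numbers, not normalized, and for Pcf11 library 1 a table of splice junctions with read counts. STAR, Trim Galore and the build (dm6, BDGP6) are named per the submitters' processing notes, with no version given in the sources used here. Count column 4, the sense strand of this kit, was used, and its 4 rows of totals were left out. Reads of near-identical copies that map to several places are missing from such counts. Reads assigned to no gene were 1.53% of uniquely mapped reads in the Pcf11 library, against 1.36% and 1.35% in the controls. A count of 3 reads, used as the floor, was 0.0476 CPM in the Pcf11 library and 0.0416 and 0.0409 CPM in the controls, and intervals and floors cover counting error only.

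Genes that reached 10 counts in 2 or more of the 5 libraries were tested with edgeR 4.0.16 (quasi-likelihood test, TMM scaling, 3 groups in 1 fit, prior count 0.125, Benjamini-Hochberg adjustment at 0.05) in R 4.3.3. The fit was also run on simulated counts. These gave the Pcf11 library the same spread as the others, so they cannot test that assumption. All adjusted p-values are over all genes tested. DESeq2 1.42.0 was an alternative. With 2 residual degrees of freedom, the spread rests largely on the trend over genes. Coordinates, gene distances and exon lengths come from the Ensembl annotation of BDGP6, which held 17710 of the 17807 gene identifiers. The members and gene lists were chosen with earlier results of these data known. Genes were named by a rule: both target genes, the 12 largest rises and falls among genes of at least 10 CPM over the group means, the 10 largest gains and losses in CPM, up to 3 members of each list by size of fold change, and the 5 largest antisense rises. The other genes named were chosen after their values were seen.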

Additional observations from a re-analysis of the deposited data

Results flagged for a closer look

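Reads that mapped uniquely but fell in no annotated gene on the sense strand were 1.53% of uniquely mapped reads in the Pcf11 library, against 1.36% and 1.35% in the controls. They enter none of the comparisons and were noted because the Pcf11 library lay above both controls. With 1 Pcf11 library the difference has no replicate check, and where in the genome these reads lie was not analysed here.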

How the results depend on the processing

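The counts of genes called higher and lower stayed within 1.5 times those reported under RLE scaling, other filters, counting without strand, the 3 libraries alone and DESeq2. With library totals, 1233 genes were at least 2-fold higher. Leaving out 1 control or cbc library at a time gave 4261 to 4627 genes higher and 4834 to 5284 lower. RLE scaling gave 5283 higher and 4435 lower, and DESeq2 4663 and 3768. Of 2470 fold changes recomputed for 206 named or listed genes, 2410 kept direction and side of the threshold, 34 lost and 18 gained a call, and 8 turned. Turned values were -0.0243 for CG4836 and -0.0625 for cbc with library totals, 0.0217 for CstF64 with RLE scaling and with DESeq2, and 0.12 for SP without control library 2 (-2.0785 without control library 1). Without regard to strand, where antisense reads are counted too, they were 3.73 for Adgf-C, 0.47 for gammaTub37C and 0.0222 for kug. Antisense levels in the Pcf11 library were 15.4 CPM for Adgf-C (controls 0.1249 and 0.0818) and 1.90 CPM for gammaTub37C (controls 0.264 and 0.395). For kug they were 8.62 CPM (controls 0.624 and 0.641). The cause of the turned values was not tested. The Pcf11 and control libraries compared share only replicate number 2. Deviations of control and cbc libraries of the same number did not go together (correlation -0.0349). That comparison holds no Pcf11 library, so it cannot decide whether the numbers pair the samples. With a replicate block 4287 genes were higher and 4900 lower.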

Other observations

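Genes of the nuclear envelope and pore split in direction, with 8 of 18 higher and 5 lower. LamC, a lamin of differentiated cells, fell (-1.30), as did Mgtor, a pore basket gene (-1.28). Their list median of 0.18 was below 0 with library totals.

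Some genes without a read in 1 of the groups were tested and called, but the size of their fitted fold change depends on the prior count. Bounds are therefore given for them. RabX2 had 0 reads in the Pcf11 library, against 161 and 156 in the controls, at least 45.8-fold lower against a floor of 3 reads per library. lncRNA:CR45434 had 609 reads in the Pcf11 library and 0 in both controls, at least 232-fold higher. Both were chosen after their values were seen.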
